A study of Mus musculus with 18 samples.

Results

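Coagulation and fibrinolysis were described from 31 genes, chosen by name from the 35441 genes of the count table of mouse livers: the clotting factors, their cofactors and carrier, the contact proteins, the fibrinogen chains, the factor XIII subunits, the inhibitors of clotting and the plasminogen system. All 31 were in the table and among the 14533 genes with more than 100 reads over the 18 mice, which were tested, and all 31 pass that filter also without the untreated Lipa-/- mice. Liver RNA of 18 male mice was sequenced after selection of polyadenylated RNA, with 3 mice in each of 6 groups: WT, untreated Lipa-/- and treated Lipa-/- mice at 12- and at 34-weeks post-injection, which the labels give as 3 and 8 months. Lipa encodes lysosomal acid lipase (LAL), and the Lipa-/- mice, on a C57/BL6N background, lack exon 4 of the gene in all tissues because the Cre recombinase that deleted it was driven by the CMV promoter. The treated mice carry the same deletion and received, as young adults, an rAAV8 vector with a tagged human LIPA cDNA under the hepatocyte promoter hAAT by tail vein. The labels give no injection for the WT and the untreated Lipa-/- mice. In the methods of the study, most untreated Lipa-/- mice of the longer experiment were killed at predefined end points, so the label of 34-weeks need not be their day of sampling. The 34-week mice share 1 study code. Of the 9 mice of 12-weeks, 8 share another and untreated mouse 5 has a code of its own, so time and study code cannot be told apart.

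Most clotting factors circulate as inactive zymogens made by hepatocytes. Tissue factor bound to factor VII starts the cascade, the factor VIII and factor V cofactors speed up factor X activation and thrombin formation, and thrombin cuts fibrinogen into fibrin that factor XIII then crosslinks. Antithrombin, heparin cofactor II, protein C with protein S and the tissue factor pathway inhibitor limit thrombin, and plasmin, made from plasminogen by tPA or uPA, dissolves the clot. Sinusoidal endothelium is the main source of hepatic factor VIII, endothelium of von Willebrand factor, and macrophages and platelets of the factor XIII A subunit. The liver thus holds both the cells that make the plasma factors and the cells that carry the surface proteins of the system.

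The libraries held 17527848 to 25833134 reads assigned to genes, and 3 reads, the floor for a single library, corresponded to 0.0946 to 0.291 CPM. CPM is a gene's reads per library size, the size here scaled with TMM factors that align the typical gene between mice. The factors were 1.16 to 1.69 in the untreated Lipa-/- mice, 0.587 to 0.759 in the treated mice at 12-weeks, the lowest of all libraries, and 0.806 to 1.07 in the others. Reads of Lipa itself were at 202 to 267 CPM in WT mice at 12-weeks and 283 to 323 at 34-weeks, against 16.7 to 33.3 and 18.2 to 19.7 in untreated and 31.02 to 37.0 and 29.1 to 31.2 in treated Lipa-/- mice. The tissue label was met by all 8 hepatocyte markers, whose summed level was 64278 to 80553 CPM in WT mice at 12-weeks. In untreated Lipa-/- mice this sum was 39166 to 57992 CPM at 12- and 23240.0 to 49436 at 34-weeks, while the sum of 10 macrophage and monocyte markers was 2704 to 6204 and 2256 to 3814 CPM against 97.6 to 257 and 180.2 to 402 in WT mice. Of 8 stellate and fibroblast markers 6 were called higher and 2 lower in untreated than in WT mice at 34-weeks, of 6 cholangiocyte markers 6 higher, and of 8 platelet markers tested 2 higher. Of the 8 hepatocyte markers, 3 were called lower and 0 higher in untreated than in WT mice at 12-weeks, and 6 and 0 at 34-weeks. Their median log2 fold changes were -0.88 and -1.23. The part of the hepatocyte markers in the falls reported below was not tested. In bulk liver, fewer cells of a type and less RNA per cell cannot be told apart.

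In untreated Lipa-/- livers, the genes of the plasminogen activators and their receptor, the factor XIII A subunit, von Willebrand factor and protein S rose at both time points, and 9 genes of plasma proteins had fallen by 34-weeks. A gene is called higher or lower here when its log2 fold change in the edgeR quasi-likelihood fit passes 1 in size with an adjusted p under 0.05 over all 14533 genes, and each fold change is given ± its standard error (SE). At 12-weeks, 8 of the 31 genes were called against WT mice, 6 higher and 2 lower, where 29.3% of all tested genes were called, 20.2% higher and 9.06% lower. At 34-weeks, 17 of 31 were called, 8 higher and 9 lower, with a background of 36.3%, 20.5% higher and 15.7% lower. Each of the 8 genes of 12-weeks was among the 17 of 34-weeks, with the same sign. On adjusted p alone 13 of 31 passed at 12-weeks, where 39.1% of all genes did, and 21 at 34-weeks, where 47.3% did. The 3 untreated mice did not overlap the 3 WT mice in 23 genes at 12-weeks and in 22 at 34-weeks, beside 52.7% and 60.3% of all genes. The median log2 fold change of the 31 genes was -0.16 at 12- and -0.23 at 34-weeks, beside medians of 0.02 and -0.03 over all tested genes. Levels per length spanned a wide range: in WT livers at 12-weeks, Serpinc1 was at 3307 ± 156 TPM (SD, n = 3), Fgg at 2981 ± 128, Fga at 1803 ± 375 and F2 at 1064 ± 59.7, while Plaur, Plau, Plat and F13a1 held the last 4 places at 0.325 ± 0.0313, 0.284 ± 0.197, 0.145 ± 0.127 and 0.0396 ± 0.0344 TPM. The heat map of the 31 genes by mouse shows both directions.

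**Figure D1:**
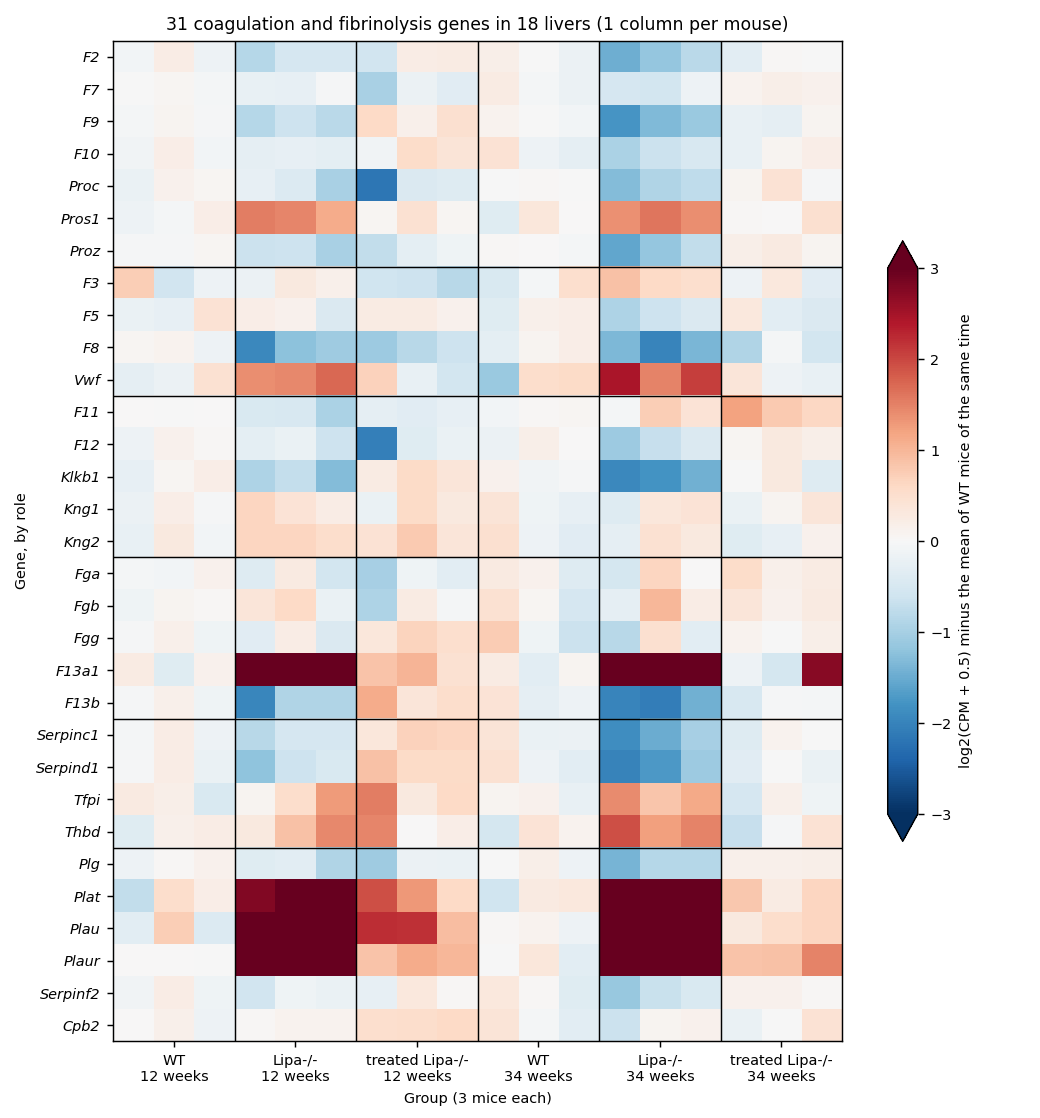
Heat map of the 31 genes (rows, grouped by role) in the 18 mice (columns, 3 per group). Colour is log2(CPM + 0.5) minus the mean of the WT mice of the same time point, red for higher and blue for lower, cut at 3; Plat, Plau, Plaur and F13a1 are dark red in all 6 untreated Lipa-/- mice.

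The counts of rises and falls depended on the scaling between livers. Scaled by total counts, the median of all tested genes moved up by 0.47 at 12-weeks and 0.63 at 34-weeks on the log2 scale. Under that scaling 9 of the 31 genes were called higher and 1 lower at 12-weeks, and 10 higher and 3 lower at 34-weeks. Of all tested genes, 32% were then called at 12-weeks, 4055 higher and 598 lower, and 39.9% at 34-weeks, 4741 higher and 1052 lower. The 3 genes still called lower at 34-weeks were F8, Klkb1 and F13b, and of the other 6 that had fallen each kept a negative log2 fold change, from -0.95 for Serpind1 to -0.42 for Plg, without passing the threshold. F7 went from -0.40 to 0.24 and Fgg from -0.23 to 0.44, Cpb2 also turned sign, and none of the 3 was called under either scaling. At 12-weeks the sign turned for F3, F5, F7, F10, F12, Fga, Fgg and Serpinf2, which the TMM fit had not called. On TPM, 9 genes were called higher and 2 lower, the latter Klkb1 and F13b. All 8 genes called higher at 34-weeks were called in each of these fits. Falls below are therefore relative to the typical gene of the same liver, as the plot of the fold changes under both scalings shows.

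**Figure D2:**
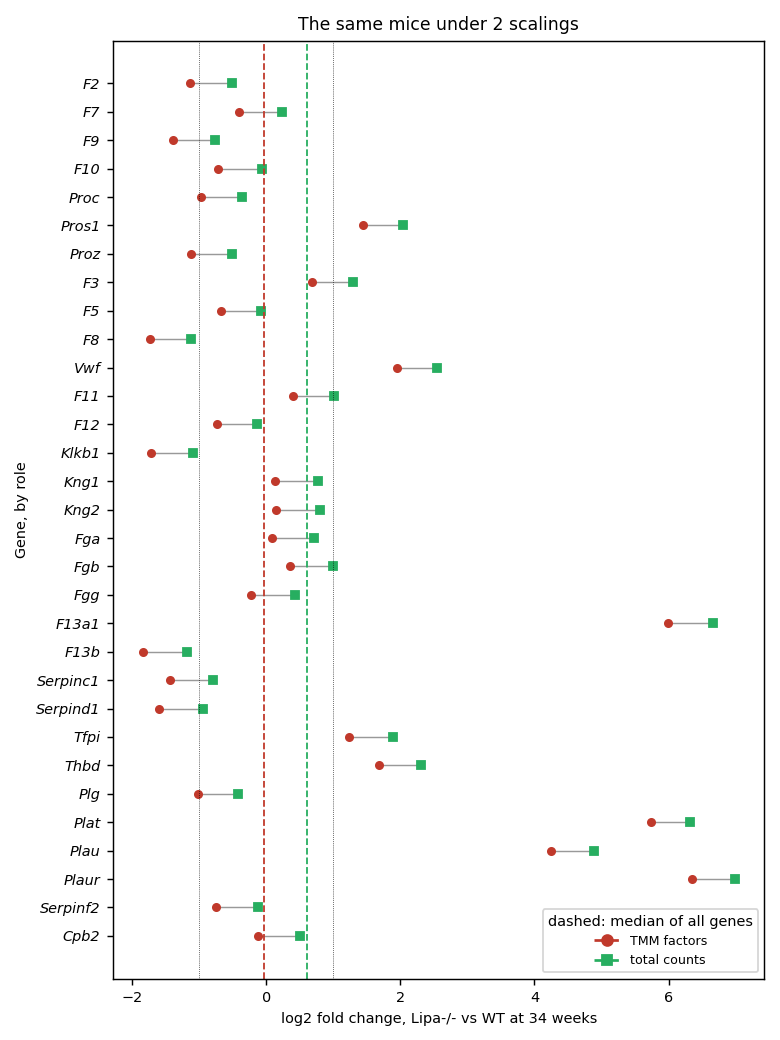
Log2 fold changes of the 31 genes between untreated Lipa-/- and WT mice at 34-weeks (horizontal axis) under TMM factors (circles) and total counts (squares). The dashed lines mark the median of all tested genes under each scaling, -0.03 and 0.60, and dotted lines the threshold of 1 in size; the squares lie to the right of the circles in all 31 genes.

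Of the vitamin K-dependent proteins, whose glutamates must be carboxylated before they can bind membranes, F2, F9 and Proz fell in untreated Lipa-/- livers at 34-weeks, F7, F10 and Proc were not called at either time, and Pros1 rose at both. F9, the zymogen lacking in haemophilia B, was at 168, 187 and 173 CPM in the WT mice, 96.5, 114 and 101 in the untreated Lipa-/- mice and 268, 194 and 246 in the treated mice at 12-weeks. At 34-weeks the WT mice had 185, 171 and 162 CPM, the untreated mice 50.5, 68.8 and 79.3 and the treated mice 147, 144 and 182. At both times the 3 untreated Lipa-/- mice lay below all other mice, with a log2 fold change from WT of -0.76 ± 0.20, adjusted p = 0.0052 at 12-weeks, not past the fold threshold, and -1.38 ± 0.20, adjusted p = 2.81e-05 at 34-weeks. F2, which encodes prothrombin, was at 2075, 2573 and 1969.6 CPM in the WT mice, 1219.5, 1543 and 1534 in the untreated Lipa-/- mice and 1482, 2570.3 and 2601 in the treated mice at 12-weeks. The 34-week levels were 2363, 2077 and 1863 CPM in WT, 754, 933 and 1186 in untreated and 1681, 2133 and 2087 in treated mice. The untreated and WT mice did not overlap at either time, and the log2 fold change was -0.62 ± 0.26, adjusted p = 0.066 at 12-weeks and -1.13 ± 0.26, adjusted p = 0.0018 at 34-weeks. Proz encodes protein Z, a cofactor in the inhibition of factor Xa. Its levels at 34-weeks were 290.3, 289 and 275 CPM in the WT mice, 96.4, 127 and 169 in the untreated Lipa-/- mice and 324, 345 and 300.1 in the treated mice, all 3 untreated mice lying below the rest. The log2 fold change from WT was -0.74 ± 0.22, adjusted p = 0.012 at 12-weeks, when the mice read 325, 325 and 344 CPM in WT, 211, 214 and 168 in untreated and 198, 271 and 302 in treated livers, and -1.12 ± 0.22, adjusted p = 0.000479 at 34-weeks. Without Lipa-/- mouse 4, the 34-week values became -0.99, adjusted p = 0.013 for F2 and -0.94, adjusted p = 0.0039 for Proz, so neither passed the fold threshold.

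Pros1, which encodes protein S, the cofactor of activated protein C, was the member of its class with a fold change above 0 at both times, beside F7 when scaled by total counts. It was at 34.6, 36.9 and 43.7 CPM in the WT mice, 111, 107 and 83.8 in the untreated Lipa-/- mice and 39.8, 52.7 and 40.0 in the treated mice at 12-weeks. By 34-weeks the untreated mice were at 123, 145 and 124 CPM, beside 36.6, 59.7 and 47.7 in WT and 48.3, 47.4 and 66.0 in treated mice. Every untreated Lipa-/- mouse exceeded every WT and treated mouse, and the log2 fold change was 1.39 ± 0.22, adjusted p = 8.55e-05 at 12-weeks and 1.45 ± 0.22, adjusted p = 4.13e-05 at 34-weeks, called in all 15 other fits at each time. Proc, the zymogen of activated protein C, was at 416, 428 and 417 CPM in the WT mice, 170.1, 226 and 248 in the untreated Lipa-/- mice and 442, 569 and 411 in the treated mice at 34-weeks, again with no untreated mouse reaching the others, and its log2 fold change of -0.97 ± 0.35, adjusted p = 0.03 just missed the fold threshold. At 12-weeks Proc was at 431, 536 and 512 CPM in WT, 416, 368 and 248 in untreated and 108, 361 and 378 in treated mice, with treated mouse 10 far below its group. F7 and F10, the zymogens of factors VIIa and Xa, had log2 fold changes of -0.16 and -0.28 at 12-weeks and of -0.40 and -0.71 at 34-weeks. F7 was at 82.5 to 111 CPM in WT and 64.1 to 84.6 in untreated mice at 34-weeks, and F10 at 385 to 629 and 243 to 334. F7, F10 and Proz lie side by side within chromosome 8 of GRCm39, the build of the deposited tables, from 13076002 to 13126026 on the plus strand (GENCODE vM39), and of these neighbours Proz alone was called.

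The enzymes that serve these proteins were read from a list of 5 genes of the vitamin K cycle, of which none was called at 12-weeks and 3 fell at 34-weeks, with a list median of -1.06. Ggcx, the gamma-glutamyl carboxylase itself, was at 39.0, 48.9 and 48.2 CPM in WT, 14.1, 18.7 and 24.6 in untreated and 61.4, 40.1 and 34.2 in treated mice at 34-weeks. Its log2 fold change from WT was -1.25 ± 0.23, adjusted p = 0.000306. Vkorc1, the vitamin K epoxide reductase inhibited by warfarin, changed by -1.51 ± 0.31, adjusted p = 0.000686 and its paralogue Vkorc1l1 by -1.06 ± 0.16, adjusted p = 4.13e-05. In treated against untreated mice Ggcx and Vkorc1 were called higher, by 1.24 and 1.15, and Vkorc1l1 at 0.83 was not.

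Factor VIII and von Willebrand factor, which circulate as a complex, moved in opposite directions. F8 was at 7.50, 7.75 and 6.38 CPM in the WT mice, 1.53, 2.76 and 3.15 in the untreated Lipa-/- mice and 3.11, 3.80 and 4.52 in the treated mice at 12-weeks. In the 34-week cohort, WT livers held 6.25, 8.27 and 9.03 CPM, untreated livers 2.74, 1.58 and 2.72 and treated livers 3.90, 7.37 and 5.13. It fell by 1.54 on the log2 scale at 12-weeks (SE 0.32, adjusted p = 0.001) and the log2 fold change at 34-weeks was -1.74 ± 0.32, adjusted p = 0.00026, the untreated and WT mice not overlapping at either time. Vwf was at 2.68, 2.92 and 4.76 CPM in the WT mice, 9.61, 10.0 and 12.2 in the untreated Lipa-/- mice and 5.73, 2.82 and 2.15 in the treated mice at 12-weeks. For the 34-week mice the levels were 2.01, 7.25 and 7.51 CPM in WT, 28.7, 14.6 and 22.2 in untreated and 6.42, 4.31 and 4.08 in treated livers. It rose by 1.62 ± 0.44, adjusted p = 0.0077 and 1.96 ± 0.43, adjusted p = 0.0014, and again every untreated mouse exceeded every WT mouse of its time. Of the 10 endothelial markers, 1 was called higher and 4 lower at 12-weeks and 1 and 4 at 34-weeks, and none was at 0 in any group. Their summed level was 216 to 256 CPM in WT and 121 to 132 in untreated mice at 12-weeks, and 238 to 289 and 156 to 222 at 34-weeks. The 9 platelet and megakaryocyte markers summed to 14.4 to 18.1 CPM in untreated livers of 12-weeks, beside 4.19 to 5.30 for WT. Their sum in the 34-week livers was 21.8 to 25.2 CPM for untreated and 6.23 to 7.49 for WT. Of the 8 tested, 1 was called higher in untreated livers at the earlier time and 2 at the later. Treated mouse 12 of 34-weeks had a sum of 41.2 CPM but 4.08 CPM of Vwf. The part of endothelial or platelet markers in the change of F8 and Vwf was not tested.

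F5, the factor V cofactor made by hepatocytes, was at 226 to 331 CPM in WT and 152 to 214 in untreated mice at 34-weeks and not called at either time, with log2 fold changes of -0.05 ± 0.26, adjusted p = 0.91 and -0.67 ± 0.26, adjusted p = 0.0454. F3, which encodes tissue factor, was rare in all livers, at 1.20 to 3.70 CPM in WT and 1.74 to 2.60 in untreated mice at 12-weeks and at 2.06 to 4.55 and 4.52 to 5.99 at 34-weeks, with intervals of the log2 fold change of -0.81 to 0.81 and -0.10 to 1.47. Its treated mice at 12-weeks, at 1.17, 1.14 and 0.920 CPM, lay below all 3 untreated mice at 1.74, 2.60 and 2.30 CPM, a difference of -1.04 ± 0.41, adjusted p = 0.042 that was called in 6 of 15 other fits. It was not called when 1 mouse was left out in 5 of 6 cases, with -0.90 (adjusted p = 0.11) without untreated mouse 8, -1.01 (adjusted p = 0.077) without untreated mouse 9, -1.12 (adjusted p = 0.066) without treated mouse 10, -1.09 (adjusted p = 0.078) without treated mouse 11 and -0.97 (adjusted p = 0.1) without treated mouse 12. Lman1 encodes the cargo receptor that carries factors V and VIII out of the endoplasmic reticulum. It fell at both times, from 203, 189 and 259 to 94.9, 109 and 105 CPM at 12-weeks (-1.07 ± 0.24, adjusted p = 0.0021) and from 149.7, 206 and 210.1 to 60.4, 75.9 and 106 CPM at 34-weeks (-1.22 ± 0.24, adjusted p = 0.000552). Of the 6 genes listed for secretion of factors V and VIII and for clearance of von Willebrand factor, 1 was called lower at 12-weeks and 4 at 34-weeks. Asgr1 and Asgr2, the asialoglycoprotein receptor subunits that clear von Willebrand factor and platelets, changed by -2.11 ± 0.36, adjusted p = 0.000138 and -1.51 ± 0.36, adjusted p = 0.0023 at 34-weeks. Adamts13, the protease that trims von Willebrand factor multimers, changed by -1.02 ± 0.28, adjusted p = 0.0062.

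In the contact pathway, Klkb1 alone was called against WT mice. It encodes plasma prekallikrein and was at 218, 269.7 and 299 CPM in the WT mice, 138, 159 and 106 in the untreated Lipa-/- mice and 308, 388 and 333 in the treated mice at 12-weeks. At 34-weeks the WT mice had 271, 232 and 242 CPM, the untreated mice 64.4, 71.1 and 91.4 and the treated mice 247, 303 and 188. The untreated mice lay below all others at both times, with a log2 fold change of -0.97 ± 0.23, adjusted p = 0.0028 at 12-weeks, short of the fold threshold, and -1.72 ± 0.23, adjusted p = 1.55e-05 at 34-weeks. The 12-week value passed it without WT mouse 1 (-1.08, adjusted p = 0.0038) or untreated mouse 8 (-1.11, adjusted p = 0.0039). Kng1 and Kng2 encode the kininogens that kallikrein cuts, and as near copies on chromosome 16 they may share reads, so their split is uncertain. At 12-weeks Kng1 was at 1762 to 2302 CPM in WT and 2341 to 3134 in untreated mice, and Kng2 at 193 to 274 and 323 to 352. Neither overlapped, and 28.6% of all genes were likewise higher without overlap. At 34-weeks Kng1 was at 1507 to 2349 CPM in WT and 1371 to 2374 in untreated mice, and Kng2 at 196 to 346 and 206 to 338, the groups overlapping for both. On TPM they did not overlap at 34-weeks, Kng1 at 948 to 1081 and 1489 to 1969, Kng2 at 164 to 194 and 293 to 401. In the TMM fit neither was called, with 0.44 ± 0.28, adjusted p = 0.24 and 0.59 ± 0.25, adjusted p = 0.075 at 12-weeks and 0.13 ± 0.28, adjusted p = 0.73 and 0.15 ± 0.25, adjusted p = 0.66 at 34-weeks. F12, the zymogen that starts the pathway on surfaces, was not called, at -0.37 ± 0.33, adjusted p = 0.42 and -0.73 ± 0.34, adjusted p = 0.085, and treated mouse 10 at 12-weeks, with 114 CPM, lay below the 2 other treated mice at 372 and 413. F11 lies next to Klkb1 on chromosome 8, both on the minus strand, and was not called at either time. F11 was at 60.6, 59.98 and 60.7 CPM in the WT mice, 43.6, 43.1 and 30.9 in the untreated Lipa-/- mice and 50.2, 47.6 and 51.2 in the treated mice at 12-weeks. The 34-week levels were 24.2, 26.6 and 26.7 CPM in WT, 24.8, 43.1 and 34.6 in untreated and 59.8, 44.5 and 39.9 in treated mice. The WT mice of 34-weeks all lay below those of 12-weeks, while the untreated and the treated mice overlapped between the times, and the log2 fold change against WT was -0.63 ± 0.21, adjusted p = 0.024 at 12-weeks and 0.40 ± 0.21, adjusted p = 0.12 at 34-weeks.

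Fibrinogen is a hexamer of paired alpha, beta and gamma chains from Fga, Fgb and Fgg, which lie within one stretch of chromosome 3 (GRCm39, 82915030 to 82957170), Fgg and Fga on the plus and Fgb on the minus strand. None of the 3 was called in any of the 6 comparisons. Fga was at 3718 to 4288 CPM in WT and 2683 to 4692 in untreated mice at 12-weeks and at 2489 to 3922 and 2243 to 5079 at 34-weeks, with a log2 fold change of -0.18 (95% interval -0.87 to 0.50) and 0.09 (-0.60 to 0.78). Fgb was at 2395 to 4630.1 CPM in WT and 2792 to 6718 in untreated mice at 34-weeks, and Fgg at 2633 to 6890.3 and 2298 to 5732. For Fgb the fold changes were 0.29 (-0.46 to 1.05) and 0.35 (-0.40 to 1.11), and for Fgg -0.16 (-0.90 to 0.59) and -0.23 (-0.98 to 0.52). The mice of a group differed widely, and Lipa-/- mouse 5 at 34-weeks held the highest level of each chain in its group.

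Ratios within a mouse do not depend on the scaling between mice. On the per-length TPM scale, the summed fibrinogen chains stood at 1.60 to 1.88 times Serpinc1 in WT and 1.97 to 3.24 times in untreated mice at 12-weeks, and at 1.23 to 1.83 and 3.08 to 7.09 times at 34-weeks, with treated mice at 1.37 to 1.57 and 1.53 to 2.47 times. The untreated and WT mice did not overlap at either time, and Serpinc1, the denominator, itself fell at 34-weeks. Against F2, which also fell then, the chains stood at 4.82 to 5.94 times in WT and 5.73 to 9.44 times in untreated mice at 12-weeks, with overlap, and at 3.58 to 5.99 and 7.53 to 15.97 times at 34-weeks, without it. The chains made up 41.1% ± 1.495 (SD, n = 3) of the TPM of all 31 genes in WT and 45.2% ± 5.24 in untreated mice at 12-weeks, again overlapping. The share was 38.6% ± 5.25 in WT and 52.6% ± 8.53 in untreated mice at 34-weeks, where the groups did not overlap. Between the chains, Fgb stood at 0.300 to 0.362 of Fgg in WT and 0.376 to 0.526 in untreated mice at 12-weeks, and at 0.279 to 0.383 and 0.478 to 0.4999 at 34-weeks. These ratios were chosen after the values were seen and are given without a test.

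Factor XIII is built from an A subunit, the transglutaminase, and a B subunit that carries it in plasma, and their genes moved apart. F13a1 was at 0.268, 0 and 0.209 CPM in the WT mice, 7.91, 8.35 and 40.2 in the untreated Lipa-/- mice and 0.680, 0.815 and 0.383 in the treated mice at 12-weeks, the WT values resting on 5, 0 and 4 reads. By 34-weeks the untreated mice were at 26.98, 27.3 and 18.5 CPM, beside 0.531, 0.197 and 0.428 in WT and 0.284, 0.109 and 5.29 in treated mice, the WT mice holding 9, 5 and 11 reads. It rose by 6.87 ± 1.21, adjusted p = 0.000267 at 12- and 6.00 ± 1.09, adjusted p = 0.000256 at 34-weeks, fitted values that rest on few WT reads. F13b, made by hepatocytes, was at 206, 235 and 192 CPM in the WT mice, 54.2, 112 and 112 in the untreated Lipa-/- mice and 459, 269.7 and 305 in the treated mice at 12-weeks. In the 34-week cohort, WT livers held 245, 153 and 164 CPM, untreated livers 45.9, 43.3 and 67.5 and treated livers 132, 178 and 175. It fell at both times, with log2 fold changes of -1.19 ± 0.30, adjusted p = 0.0047 and -1.84 ± 0.31, adjusted p = 0.000111, the 12-week value becoming -0.92, adjusted p = 0.023 without Lipa-/- mouse 5, so that it no longer passed the fold threshold. That mouse had the lowest F13b level of its group and is the 1 mouse of 12-weeks with a study code of its own. Among untreated mice at 12-weeks, mouse 9 had the highest F13a1 level and also the highest macrophage marker sum, 6204 CPM. It was highest in the hepatocyte, endothelial, stellate (901 CPM) and cholangiocyte (2233 CPM) sums as well, but not in the platelet sum. Mice 5 and 8 differed in the macrophage sum, 2704 and 5113 CPM, at 7.91 and 8.35 CPM of F13a1. Among treated mice at 34-weeks, mouse 12 stood far above the others in F13a1, and its platelet markers summed to 41.2 CPM against 5.04 and 5.90 in mice 9 and 11. The part of any of these cell types in the F13a1 level was not tested.

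The promoters of these genes are shown because the fibrinogen chains, F13b and Serpinc1 are all hepatocyte genes of which F13b and Serpinc1 fell and the chains were not called, while F13a1 rose. They are RefSeq windows of build GRCm38.p6, from 250 bases before to 50 after a gene's start, printed 5′ to 3′ on the gene's strand. Such windows were found for 24 of the 31 genes, 26 in all, since F13a1 and Tfpi have 2 each. The 7 unmatched genes were Proc, Vwf, Kng1, Thbd, Plg, Plat and Plau. Capitals mark matches, on either strand, to an HNF1 core (GTTAAT), a C/EBP site (TTGCNNAA), a STAT site (TTCNNNGAA), a PU.1 site (GAGGAAGT) or an HNF4 core (CAAAGTCC).
Fga (chr3:83025903-83026202, plus strand): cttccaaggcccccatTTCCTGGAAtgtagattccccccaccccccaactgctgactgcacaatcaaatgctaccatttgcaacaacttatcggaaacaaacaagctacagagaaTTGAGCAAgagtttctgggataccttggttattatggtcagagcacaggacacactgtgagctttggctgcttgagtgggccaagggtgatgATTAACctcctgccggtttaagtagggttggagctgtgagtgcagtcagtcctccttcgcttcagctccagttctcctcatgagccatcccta
Fgb (chr3:83049814-83050113, minus strand): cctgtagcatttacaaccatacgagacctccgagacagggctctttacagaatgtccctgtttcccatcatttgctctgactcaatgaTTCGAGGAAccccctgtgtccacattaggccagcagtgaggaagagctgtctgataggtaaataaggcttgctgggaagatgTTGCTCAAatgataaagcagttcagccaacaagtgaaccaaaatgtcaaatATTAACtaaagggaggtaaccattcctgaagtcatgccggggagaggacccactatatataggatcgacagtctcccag
Fgg (chr3:83007474-83007773, plus strand): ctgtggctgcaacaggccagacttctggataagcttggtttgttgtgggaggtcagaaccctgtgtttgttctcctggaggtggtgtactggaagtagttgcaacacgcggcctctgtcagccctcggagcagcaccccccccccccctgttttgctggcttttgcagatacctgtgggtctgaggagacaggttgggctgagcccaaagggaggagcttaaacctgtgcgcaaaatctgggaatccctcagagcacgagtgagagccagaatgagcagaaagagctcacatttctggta
F13b (chr1:139501457-139501756, plus strand): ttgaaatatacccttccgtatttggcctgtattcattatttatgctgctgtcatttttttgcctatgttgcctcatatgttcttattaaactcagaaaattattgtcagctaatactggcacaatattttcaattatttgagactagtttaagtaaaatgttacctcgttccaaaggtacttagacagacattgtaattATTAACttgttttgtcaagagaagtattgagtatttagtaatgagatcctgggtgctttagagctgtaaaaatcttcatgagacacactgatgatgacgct
F13a1, downstream start (chr13:37049164-37049463, minus strand): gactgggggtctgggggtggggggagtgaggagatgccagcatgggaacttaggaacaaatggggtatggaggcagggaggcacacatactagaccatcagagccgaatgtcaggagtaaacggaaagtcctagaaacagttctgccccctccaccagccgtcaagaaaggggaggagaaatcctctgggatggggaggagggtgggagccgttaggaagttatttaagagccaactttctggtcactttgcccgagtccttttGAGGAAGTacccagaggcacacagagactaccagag
Serpinc1 (chr1:160978333-160978632, plus strand): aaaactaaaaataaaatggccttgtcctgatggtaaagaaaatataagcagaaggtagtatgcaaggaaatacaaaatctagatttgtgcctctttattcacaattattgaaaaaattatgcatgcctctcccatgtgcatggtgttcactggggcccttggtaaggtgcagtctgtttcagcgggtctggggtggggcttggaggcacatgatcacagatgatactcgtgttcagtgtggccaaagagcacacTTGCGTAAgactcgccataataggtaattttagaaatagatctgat

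Fga and Fgb each held an HNF1 core, a C/EBP and a STAT match, while Fgg, from the same cluster, held none of the 5 motifs. F13b held an HNF1 core and Serpinc1 a C/EBP match. The PU.1 match of F13a1, a motif of the myeloid factor PU.1, began at position 15 from the gene's downstream start site, towards the 3′ end of the window printed. The second F13a1 window, at chr13:37050195-37050494, upstream on the gene's minus strand and not printed, held none of the 5 motifs. The matches of Fga began at positions -43 (HNF1), -135 (C/EBP) and -234 (STAT) from the start and those of Fgb at -29, -80 and -162. Over the 26 windows, 5 held the HNF1 core, 9 the C/EBP site, 4 the STAT site and 1 the PU.1 site, and none the HNF4 core. Of 32817 such windows in the genome, 7.1%, 10.8%, 8.29%, 3.2% and 1.42% held them. In the printed windows no match overlapped another, and a match is a run of letters, not a measured site.

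The plasma serpins antithrombin (Serpinc1) and heparin cofactor II (Serpind1) fell in untreated Lipa-/- livers at 34-weeks, and the surface inhibitors Tfpi and Thbd rose. Serpinc1, the highest of the 31 genes per length in WT livers, was at 2365, 2849 and 2212 CPM in the WT mice, 1373, 1747 and 1734 in the untreated Lipa-/- mice and 3129, 3957 and 3855 in the treated mice at 12-weeks. For the 34-week mice the levels were 2977, 1959 and 1997 CPM in WT, 625, 803 and 1135 in untreated and 1745, 2421 and 2242 in treated livers. No untreated mouse reached a WT mouse at either time, and the log2 fold change was -0.61 ± 0.26, adjusted p = 0.076 and -1.44 ± 0.27, adjusted p = 0.00033. Serpind1 was at 491, 586 and 437 CPM in the WT mice, 218, 323 and 367 in the untreated Lipa-/- mice and 922, 742 and 750.4 in the treated mice at 12-weeks. At 34-weeks the WT mice had 642, 416 and 375 CPM, the untreated mice 115, 141 and 219 and the treated mice 365, 459 and 406. Its log2 fold change was -0.74 ± 0.28, adjusted p = 0.045 and -1.59 ± 0.28, adjusted p = 0.000218, again without overlap of untreated and WT mice.

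Tfpi, the inhibitor of tissue factor and factor VIIa, was at 4.54, 4.73 and 3.62 CPM in the WT mice, 12.3, 8.04 and 10.0 in the untreated Lipa-/- mice and 2.88, 4.81 and 3.85 in the treated mice at 34-weeks. At 12-weeks its mice read 5.84, 5.45 and 3.35 CPM in WT, 5.11, 7.07 and 12.3 in untreated and 14.8, 5.92 and 7.51 in treated livers, with overlap between the groups. It was called at 34-weeks alone (0.74 ± 0.37, adjusted p = 0.12 at 12-weeks, 1.24 ± 0.37, adjusted p = 0.011 at 34-weeks). Thbd encodes thrombomodulin, the endothelial receptor that turns thrombin towards protein C. It was at 1.59, 3.55 and 2.76 CPM in the WT mice, 11.0, 6.64 and 8.05 in the untreated Lipa-/- mice and 1.38, 2.46 and 3.58 in the treated mice at 34-weeks, every untreated mouse above the rest. Its log2 fold change was 1.69 ± 0.46, adjusted p = 0.0061, after 1.03 ± 0.46, adjusted p = 0.084 at 12-weeks, when WT mice read 2.14, 3.30 and 3.45, untreated 3.65, 5.82 and 8.77 and treated mice 8.94, 2.93 and 3.45 CPM. Procr, the endothelial protein C receptor, rose at both times, by 3.34 ± 0.48, adjusted p = 4.03e-05 and 3.22 ± 0.46, adjusted p = 3.01e-05. Tfpi2, a matrix-bound relative of Tfpi, fell at both, from 105, 117 and 84.1 to 20.9, 34.7 and 24.2 CPM at 12-weeks and from 143, 63.1 and 76.2 to 8.89, 15.2 and 17.8 CPM at 34-weeks (-1.94 ± 0.31, adjusted p = 0.000126 and -2.75 ± 0.32, adjusted p = 4.04e-06). A2m, a broad protease inhibitor, had 0 reads in all 6 WT mice and was at 1.74, 0.776 and 4.28 CPM in untreated mice at 12- and 3.88, 6.72 and 3.86 at 34-weeks. Against the floor of 3 reads in each WT library this was at least 14.7-fold and 35.1-fold higher. Of the 16 other inhibitors and regulators listed, 15 were tested, with 6 called higher and 1 lower at 12-weeks and 7 and 2 at 34-weeks.

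In fibrinolysis the activators and their receptor rose at both times, Plg fell at 34-weeks, and the inhibitors Serpinf2 and Cpb2 were not called. Plaur, the uPA receptor, was at 0.482, 0.478 and 0.471 CPM in the WT mice, 26.7, 29.2 and 41.4 in the untreated Lipa-/- mice and 1.26, 1.63 and 1.46 in the treated mice at 12-weeks. The 34-week levels were 0.354, 0.591 and 0.195 CPM in WT, 39.3, 28.0 and 27.2 in untreated and 1.06, 1.09 and 1.94 in treated mice. It rose 67.2-fold at 12- and 81.4-fold at 34-weeks (log2 6.07 ± 0.36, adjusted p = 1.65e-08, and 6.35 ± 0.37, adjusted p = 1.29e-08). These fitted values rest on few WT reads, 9, 10 and 9 at 12-weeks and 6, 15 and 5 at 34-weeks. Plau, which encodes uPA itself, was at 0.429, 1.44 and 0.366 CPM in the WT mice, 17.3, 22.2 and 33.5 in the untreated Lipa-/- mice and 4.86, 4.83 and 1.69 in the treated mice at 12-weeks. By 34-weeks the untreated mice were at 30.1, 20.6 and 33.7 CPM, beside 1.53, 1.62 and 1.284 in WT and 1.91, 2.35 and 2.57 in treated mice. Its rise was 5.00 ± 0.49, adjusted p = 8.67e-07 and 4.25 ± 0.46, adjusted p = 1.75e-06. These values also rest on few WT reads, 8, 30 and 7 at 12-weeks and 26, 41 and 33 at 34-weeks. Plat, which encodes tPA, was at 0, 0.718 and 0.471 CPM in the WT mice, 5.21, 10.9 and 24.2 in the untreated Lipa-/- mice and 2.72, 1.58 and 0.766 in the treated mice at 12-weeks, WT mice holding 0, 15 and 9 reads. In the 34-week cohort, WT livers held 0.0590, 0.512 and 0.545 CPM, untreated livers 21.5, 18.1 and 24.1 and treated livers 0.975, 0.491 and 0.817, WT mice holding 1, 13 and 14 reads. Its rise was 5.04 ± 0.76, adjusted p = 6.54e-05 and 5.73 ± 0.77, adjusted p = 1.46e-05. For all 3 genes, every untreated mouse exceeded every WT and treated mouse at both times, and each was called in all 15 other fits at each time.

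Of the 10 macrophage and monocyte markers, 9 were called higher at 12-weeks and 8 at 34-weeks, beside 1 lower at 34-weeks, and none was at 0 in any group. In treated mice their sum was 835 to 2611 CPM at 12- and 258 to 732 at 34-weeks. The part of these cells in the levels of Plaur, Plau and Plat was not tested. Plg, the gene of plasminogen, was at 1820.4, 2081 and 2202 CPM in the WT mice, 1579.9, 1636 and 1081 in the untreated Lipa-/- mice and 974, 1789.9 and 1768 in the treated mice at 12-weeks. For the 34-week mice the levels were 1909, 2147 and 1717 CPM in WT, 728, 1056 and 1056 in untreated and 2139, 2133 and 2161 in treated livers. Its log2 fold change was -0.51 ± 0.26, adjusted p = 0.14 at 12-weeks and -1.02 ± 0.26, adjusted p = 0.0041 at 34-weeks, just past the threshold and called in 7 of 15 other fits. It was not called without Lipa-/- mouse 4 (-0.87, adjusted p = 0.026) or without WT mouse 2 (-0.94, adjusted p = 0.017). Serpinf2, the plasmin inhibitor alpha2-antiplasmin, had log2 fold changes of -0.30 ± 0.24, adjusted p = 0.34 and -0.75 ± 0.24, adjusted p = 0.017. Cpb2, the carboxypeptidase that protects fibrin from plasmin, had log2 fold changes of 0.08 ± 0.24, adjusted p = 0.82 and -0.13 ± 0.24, adjusted p = 0.69. At 34-weeks Serpinf2 was at 528 to 833 CPM in WT and 307 to 491 in untreated mice, and Cpb2 at 223 to 362 and 178 to 306. Anxa2, a cell surface receptor of plasminogen and tPA, rose at both times, from 8.52, 14.97 and 14.1 to 129.8, 191 and 408 CPM at 12-weeks and from 17.4, 33.9 and 36.5 to 241, 225 and 278 at 34-weeks (4.27 ± 0.42, adjusted p = 8.96e-07 and 3.08 ± 0.40, adjusted p = 9.53e-06). Plgrkt, another plasminogen receptor, rose by 2.17 ± 0.32, adjusted p = 5.17e-05 and 1.67 ± 0.31, adjusted p = 0.000337, while S100a10, the binding partner of Anxa2, changed by -1.06 ± 0.34, adjusted p = 0.016 at 34-weeks. Of the 7 genes listed for plasmin surface and protease-activated receptors, 5 were tested, with 3 called higher at 12-weeks and 3 higher and 1 lower at 34-weeks.

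**Figure D3:**
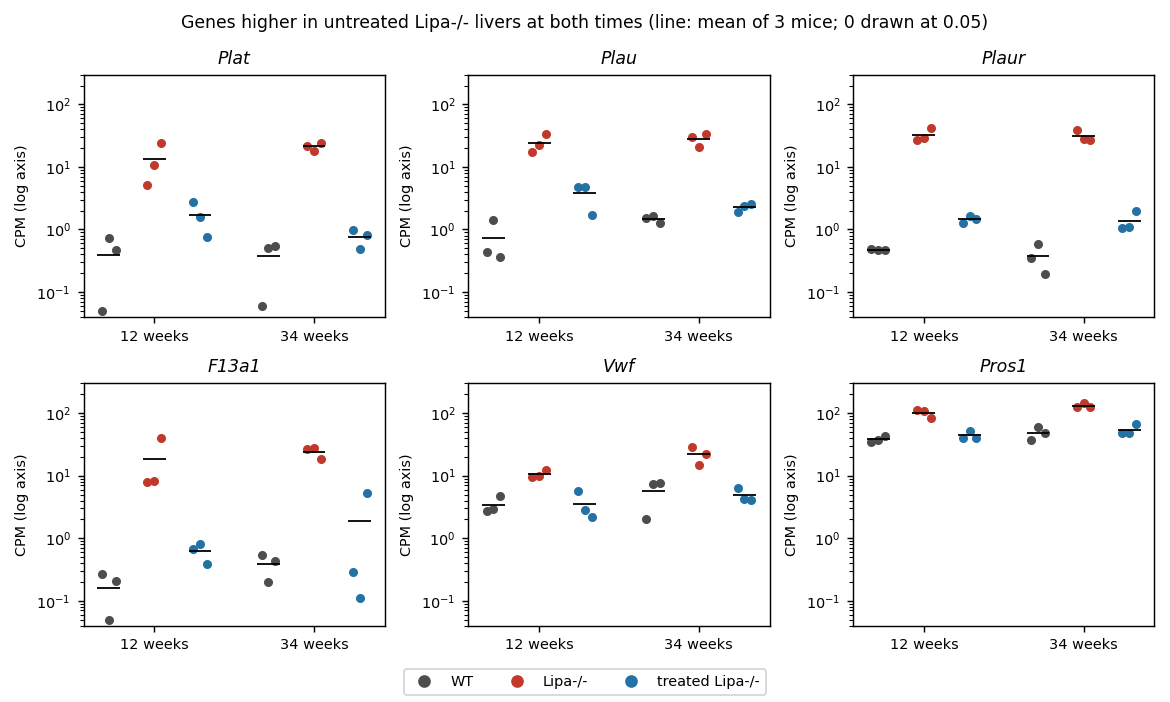
CPM of each mouse (points, log axis) for the 6 genes that rose at both times in untreated Lipa-/- livers, with a line at the mean of 3 mice and 0 drawn at 0.05. In each panel the 3 red points of a time point lie above the 3 WT and 3 treated points of that time.

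**Figure D4:**
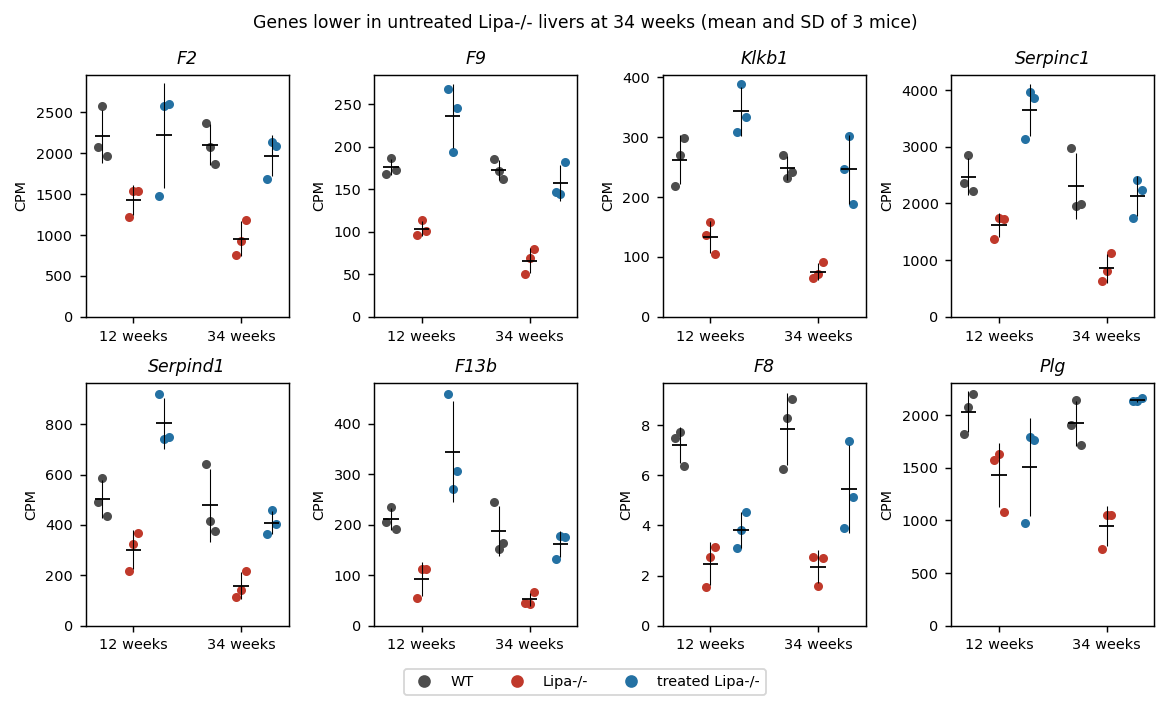
CPM of each mouse (points, linear axis from 0) for 8 of the 9 genes that fell at 34-weeks, Proz being the other, with the mean and SD of 3 mice. At 34-weeks the untreated Lipa-/- mice lie below all WT and treated mice in every panel.

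Between treated Lipa-/- and WT mice, few of the 31 genes were called. At 12-weeks 2 of 31 were called, both higher, where 25.6% of all tested genes were called, 13.6% higher and 12% lower. At 34-weeks 1 of 31 was called, again higher, with a background of 0.22%, 0.131% higher and 0.0895% lower. The 3 treated mice did not overlap the 3 WT mice in 22 of the 31 genes at 12-weeks, 13 higher and 9 lower. Of all genes, 52.5% did not overlap then, 27.7% higher and 24.8% lower. For the 34-week mice this held in 4 of the 31, all higher, beside 8.89% of all genes, 4.78% higher and 4.11% lower. The called genes of 12-weeks were Plau, at 2.32 ± 0.47, adjusted p = 0.0041, and Plaur, at 1.61 ± 0.37, adjusted p = 0.0065, and every treated mouse exceeded every WT mouse for both. The count was 4 without WT mouse 2 and 6 without treated mouse 12. Plat stood at 2.02 ± 0.78, adjusted p = 0.0503 at 12-weeks without passing the test. At 34-weeks the gene was Plaur again, at 1.83 ± 0.36, adjusted p = 0.0487. That call was made in 5 of 15 other fits. Although the 3 treated mice lay above the 3 WT mice, the value was not called with 1.80 (adjusted p = 0.16) without WT mouse 1, 1.49 (adjusted p = 0.42) without WT mouse 3, 2.00 (adjusted p = 0.081) without treated mouse 9, 1.96 (adjusted p = 0.062) without treated mouse 11 and 1.48 (adjusted p = 0.3) without treated mouse 12. Between treated and WT mice at 12-weeks the split moved with the scaling: by total counts, 2 were called higher and 4 lower, where 27.9% of all genes were called, 987 higher and 3062 lower, and the median of all genes moved by -0.39. The 2 higher genes were Plau and Plaur again, and on TPM neither was called (0.88, adjusted p = 0.057, and 0.44, adjusted p = 0.29). On TPM 6 of the 31 were called, 0 higher and 6 lower, where 21.9% of all genes were called, 431 higher and 2747 lower. The 0.5 added to TPM in that fit exceeded the WT means of Plau, 0.284, and Plaur, 0.325. The means of treated mice were 0.982 and 0.630 TPM. The part of this constant in the lost calls was not tested. F8 was not called, at -0.92 ± 0.31, adjusted p = 0.033 at 12-weeks and -0.53 ± 0.31, adjusted p = 0.94 at 34-weeks, its treated mice at 3.11, 3.80 and 4.52 CPM at 12-weeks lying below all 3 WT mice.

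Against untreated Lipa-/- mice, 12 of 31 genes were called at 12-weeks, 5 higher and 7 lower in treated mice, with a background of 41.5%, 16.2% higher and 25.3% lower. At 34-weeks 18 were called, 10 higher and 8 lower, with a background of 31.5%, 12.8% higher and 18.6% lower. These comparisons share the untreated mice with those against WT, so the same mice enter both. At 34-weeks the genes higher in treated mice were F2, F9, Proc, Proz, F8, Klkb1, F13b, Serpinc1, Serpind1 and Plg, from 1.04 for F2 to 1.70 for Klkb1. Those lower were Pros1, Vwf, F13a1, Tfpi, Thbd, Plat, Plau and Plaur, from -1.279 for Pros1 to -4.77 for Plat. Of the higher genes at 34-weeks, F2, Proc and F8 were no longer called when 1 mouse was left out, for F2 and Proc untreated mouse 4 (0.89, adjusted p = 0.026, and 1.00, adjusted p = 0.068) and for F8 untreated mouse 5 (0.9969, adjusted p = 0.033). Treated mice 11 or 12 did the same for F2 (0.98, adjusted p = 0.018, and 0.97, adjusted p = 0.017), and mouse 11 for Proc (0.99, adjusted p = 0.06) and F8 (0.94, adjusted p = 0.038). At 12-weeks the genes higher in treated mice were F9, Klkb1, F13b, Serpinc1 and Serpind1, from 1.17 for Serpinc1 to 1.89 for F13b, and those lower were F3, Pros1, Vwf, F13a1, Plat, Plau and Plaur, from -1.04 for F3 to -4.87 for F13a1. By total counts none of these 5 was called, 14 of the 31 were called lower and 0 higher at 12-weeks, and 9 lower and 2 higher at 34-weeks, with all-gene medians moved by -0.87 and -0.54. Under that scaling 52.4% of all genes were called at 12-weeks, 680 higher and 6932 lower, and 34.4% at 34-weeks, 927 higher and 4074 lower. On TPM 16 of the 31 were called lower and 0 higher at 12-weeks, and 9 lower and 2 higher at 34-weeks. Of all genes, 45.2% were then called at 12-weeks, 399 higher and 6169 lower, and 30.9% at 34-weeks, 815 higher and 3682 lower.

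**Figure D5:**
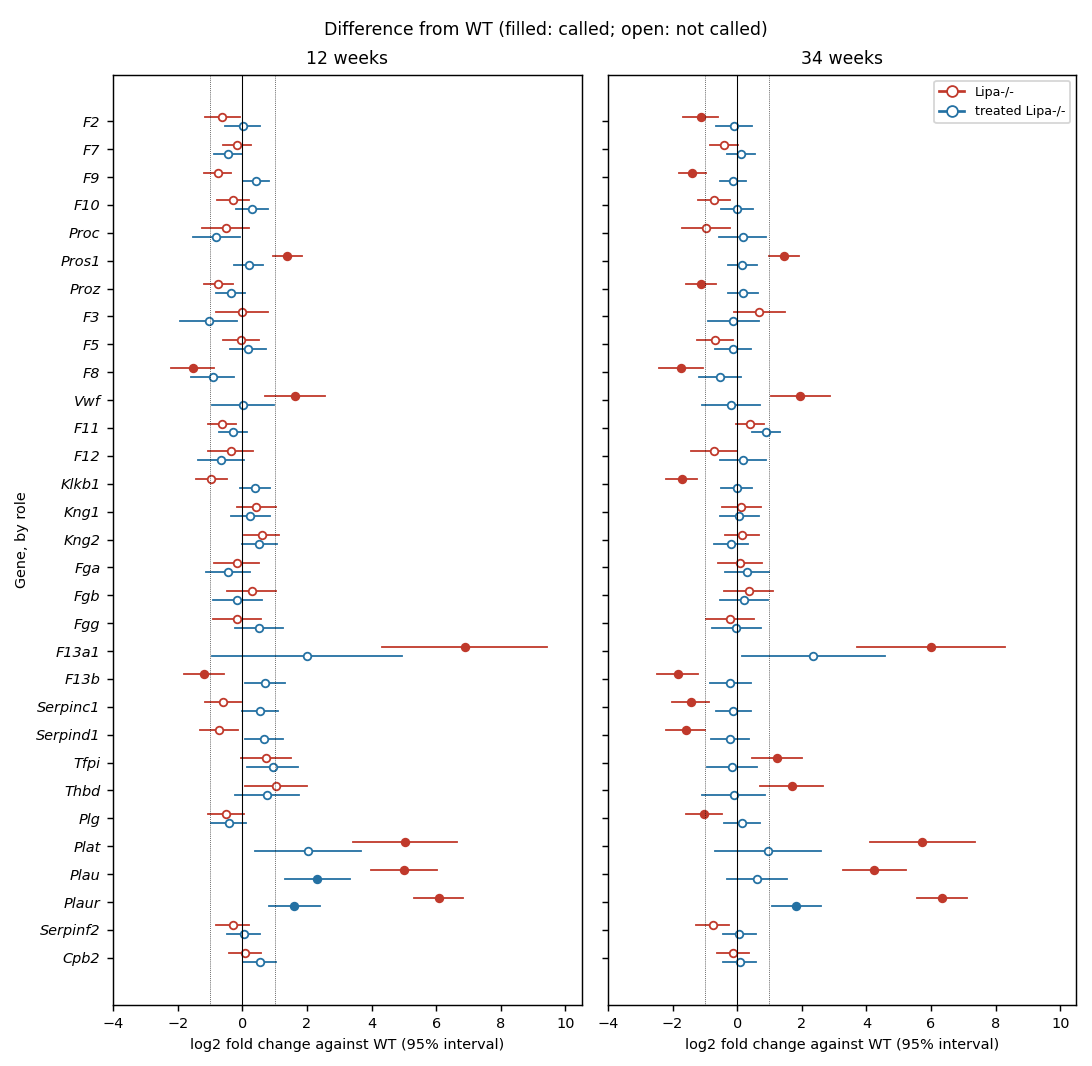
Log2 fold changes against WT mice of the same time (horizontal axis, with 95% intervals) of the 31 genes for untreated (red) and treated (blue) Lipa-/- mice, at 12-weeks on the left and 34-weeks on the right. Filled points were called, namely 8 and 17 red and 2 and 1 blue, and dotted lines mark the threshold of 1 in size.

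An interaction term compared the difference from WT mice at 34-weeks with that at 12-weeks. For untreated Lipa-/- mice, 0 of the 31 genes passed the edgeR test, with 5 at an unadjusted p under 0.05, where 0.0619% of all tested genes were called and 9.48% had such a p. DESeq2 with size factors called F11, where 1.31% of all genes were called, and with gene length offsets it called 0 of the 31 (1.18% of all genes). Serpind1, at -0.74 and then -1.59, did not pass this test (-0.86 ± 0.39, adjusted p = 0.51). For treated mice, 1 of 31 was called higher, F11, where 18.4% of all genes were called. F11 was -0.28 from WT at 12-weeks and 0.90 at 34-weeks, neither of them called, and the difference between these was 1.18 ± 0.29, adjusted p = 0.025. In WT mice F11 was at 60.4 ± 0.397 CPM (SD, n = 3) at 12- and 25.8 ± 1.39 at 34-weeks, and in treated mice at 49.7 ± 1.84 and 48.1 ± 10.4. The treated call did not hold with 1.18 (adjusted p = 0.0512) without WT mouse 1 of 12-weeks, 1.18 (adjusted p = 0.075) without WT mouse 3 of 12-weeks, 1.13 (adjusted p = 0.064) without WT mouse 1 of 34-weeks and 0.99 (adjusted p = 0.074) without treated mouse 9 of 34-weeks. Time and study code cannot be told apart in these values.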

How the data were processed

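Polyadenylated RNA of frozen mouse liver was sequenced in paired-end reads for 18 mice, 3 in each of 6 groups. Per the study's methods, the authors quantified the reads with Salmon against mouse cDNA and summed them to genes with tximport. The deposited estimated counts are neither scaled for depth nor for length (19.4% of values are not whole), the deposited TPM are scaled within each mouse by the authors, and the gene lengths are per gene and mouse. The submitters' processing notes name GRCm39, R 4.3.0 and DESeq2 1.40.1. A further deposited table of the authors' own comparisons (mean, fold change, p-value) was not used.

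Estimated counts were rounded, genes with more than 100 reads over all mice were kept and tested with edgeR 4.0.16 in R 4.3.3 (TMM factors, quasi-likelihood fit to 6 group means, 12 residual degrees of freedom), with Benjamini-Hochberg adjustment over all 14533 genes. Groups were set by the labels' genotype, treatment and time, mice being the replicates. The 31 genes and the lists of related genes and cell type markers were chosen with earlier results of these data known. Members called in a comparison within a time point are given by mouse. Related genes are named when called, at a mean of at least 1 CPM, for the largest fold changes of untreated against WT mice, at most 3 per list and direction. A gene that this rule names is not reported here. Alternatives were upper quartile factors, total counts, DESeq2 1.42.0, gene length offsets, 2 other filters, fits of only the groups compared, limma 3.58.1 on log2(TPM + 0.5), an adjusted p under 0.01 or alone, and leaving out each mouse. The scripts were tested on simulated data. Depth was 17527848 to 25833134 reads per mouse, and a floor of 3 reads covers counting error only. Positions are GRCm39 and promoter windows RefSeq GRCm38.p6.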

Additional observations from a re-analysis of the deposited data

Results flagged for a closer look

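In 3 genes the difference between treated and WT mice at 34-weeks differed from that at 12-weeks in the interaction term of the edgeR fit. F11, the contact pathway zymogen, was at 60.6, 59.98 and 60.7 CPM in WT and 50.2, 47.6 and 51.2 in treated mice at 12-weeks, and 24.2, 26.6 and 26.7 and 59.8, 44.5 and 39.9 at 34-weeks. Its interaction was 1.178 on the log2 scale (adjusted p = 0.025), and every WT mouse of 34-weeks lay below every WT mouse of 12-weeks. Anxa2, the plasminogen and tPA receptor, was at 8.52, 14.97 and 14.1 CPM in WT and 30.7, 30.9 and 21.3 in treated mice at 12-weeks, and 17.4, 33.9 and 36.5 and 15.7, 16.001 and 23.9 at 34-weeks. It was called higher in treated mice at 12-weeks (1.14, adjusted p = 0.028) and not at 34-weeks (-0.66, adjusted p = 0.93), with an interaction of -1.797 (adjusted p = 0.032). Asgr1, the receptor subunit that clears von Willebrand factor, was at 620.3, 751 and 495 CPM in WT and 1921, 1056 and 1189 in treated mice at 12-weeks, and 1082, 481 and 477 and 325, 520.4 and 593 at 34-weeks. Its log2 fold changes were 1.16 (adjusted p = 0.018) and -0.51 (adjusted p = 0.97), and its interaction was -1.663 (adjusted p = 0.032). These 3 were among 2667 genes called by this term, a count that fell to 1 when treated mouse 9 of the later time was left out. It was 3 and 19 when WT mouse 3 or 1 of the earlier time was left out, 172 when WT mouse 1 of the later time was, and 446 and 1211 for treated mice 10 (earlier) and 11 (later). Time point and study code cannot be told apart in these values, and the treated libraries of 12-weeks had the lowest scaling factors of all.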

How the results depend on the processing

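The 31 genes were counted again under each alternative. In untreated against WT mice, 8 genes at 12-weeks became 13 on adjusted p alone and 8 to 9 with 1 mouse left out, and 17 at 34-weeks became 11 on TPM and 14 to 18. In treated against WT mice at 12-weeks, 2, both higher, became 6 by total counts, 2 higher and 4 lower, and 6 on TPM, 0 higher and 6 lower. On TPM 21.9% of all genes were called then, 431 higher and 2747 lower. The count of the 31 was 4 by DESeq2 with size factors or length offsets, and 2 to 6 with 1 mouse left out. At 34-weeks, 1 became 0 with upper quartile factors, total counts, edgeR length offsets, only the groups compared, TPM or an adjusted p under 0.01, and 0 to 1 with 1 mouse left out. In treated against untreated mice, 12 at 12-weeks became 11 to 12 with 1 mouse left out, and 18 at 34-weeks became 11 by total counts and on TPM and 15 to 19. The interaction of untreated mice gave 0, 1 by DESeq2 with size factors and 0 with length offsets. That of treated mice gave 1, then 3 by total counts, 2 by DESeq2 with size factors or length offsets, 6 on TPM, 0 with only the groups compared or an adjusted p under 0.01, and 0 to 2 with 1 mouse left out. By total counts and TPM the medians were 0.3116 and 0.3018 for untreated against WT mice at 12-weeks and 0.4358 and 0.4671 at 34-weeks (-0.493 to 0.0854 with 1 mouse left out), -0.1208 and -0.3175 for treated against WT mice at 12-weeks, and -0.766 and -1.024 at 12-weeks and -0.02316 and -0.01751 at 34-weeks for treated against untreated mice. Upper quartile factors moved that median by 0.18 for untreated against WT mice at 34-weeks, with 8 higher and 6 lower. Plg in treated against untreated mice at 12-weeks turned to -1.0865 on TPM (adjusted p = 0.0056) from 0.08 (adjusted p = 0.82), and the cause was not tested.

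Over all genes, treated against WT mice at 34-weeks gave 32 calls, 85 and 88 by DESeq2, 5 with only the groups compared, 21 on TPM and 10 at an adjusted p under 0.01, and 12-weeks gave 3714 and 1785 at that p. The interactions gave 9 for untreated mice, 191 and 171 by DESeq2, 63 on TPM, 16 without a filter, 14 with only the groups compared and 4 with edgeR length offsets or at an adjusted p under 0.01, and 2667 for treated mice, 3 with only the groups compared and 0 at an adjusted p under 0.01. DESeq2 gave no p for F13a1.

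The numbers that name the mice recur across the time points, but on different animals. Each liver was taken when its mouse was killed, so the numbers do not pair the mice. Deviations of same-numbered mice correlated at 0.127, -0.449 and 0.671 in WT, 0.227 in untreated and -0.0496 and -0.364 in treated mice. With 3 mice per group, such correlations cannot by themselves show or exclude a pairing. A replicate block could be fitted for the interactions alone, since mice of one time point share no number, and gave 0 members and 0 genes called in each, while 742 and 2477 genes had an unadjusted p under 0.05, at 3 residual degrees of freedom.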

Other observations

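Some values within the fibrinogen and plasminogen genes were noticed after the values were seen and are given without a test. Fga, the alpha chain, stood at 0.235 to 0.344 of Fgg, the gamma chain, on the TPM scale in the 3 treated mice at 12-weeks, and at 0.451 to 0.862 in the other 15 mice, with no overlap. The ratio of treated mice at 34-weeks was 0.656 to 0.862. Serpinf2, the plasmin inhibitor, stood at 0.428 to 0.558 of Plg in WT, 0.396 to 0.790 in untreated and 0.556 to 0.803 in treated mice at 12-weeks, and at 0.443 to 0.600, 0.553 to 0.658 and 0.449 to 0.524 at 34-weeks.

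Treated mouse 12 of 34-weeks had 5.29 CPM of F13a1 and 1.94 of Plaur, the highest of its group in both, and its macrophage markers summed to 732 CPM. Treated mouse 10 of 12-weeks, low in Proc and F12, had 974 CPM of Plg against 1789.9 and 1768 in its group, but the highest F9 (268 CPM) and F13b (459 CPM). Its TMM factor, 0.587, was the lowest of all libraries. On TPM its F9 was the lowest of its group, 48.2 against 50.3 and 51.6. Its F13b stayed the highest on TPM, 97.1 against 83.7 and 76.9.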
